A study of Mus musculus with 8 samples.

Results

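NF-YA CUT&RUN peaks that lay just upstream of protein-coding gene starts were examined in control and Taf4asKO muscle stem cells (MuSCs). A peak belonged to this set when the deposited table assigned it to a protein-coding gene, gave a distance of at most 200 bases between the peak centre and the gene start, and placed the centre on the upstream side of that start. The set held 1567 of 7196 peaks (21.8%), each at a different gene ID, and thus marked 7.14% of the 21951 protein-coding genes of GENCODE M21. Both genotypes were C57BL/6 mice, and the cells were activated, proliferating MuSCs in culture. In Taf4asKO mice loxP-flanked exons of *Taf4a* were deleted by Cre under *Pax7* control after tamoxifen, so that the loss was restricted to cells with *Pax7* activity, whereas control cells kept *Taf4a*. The labels gave 8 libraries, of which the 4 NF-YA libraries, 2 for each genotype, are analysed here, and the IgG libraries were not used. No label said whether the replicates came from separate mice or cultures, so that p-values between genotypes measure the spread between 2 libraries only.

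NF-Y is a trimeric transcription factor of the subunits NF-YA, NF-YB and NF-YC. NF-YB and NF-YC form a dimer with histone folds, and NF-YA reads the pentamer CCAAT in the minor groove, where the bound complex bends DNA. CCAAT is one of the classical elements of promoters without a TATA box, and it often occurs in several copies before genes of cell division, histone genes and genes for protein folding. TAF4A is a subunit of the general factor TFIID.

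Each value is the number of reads in a peak after the authors had normalised it between libraries. The median upstream peak had values of 65 and 59 in the control replicates and of 57 and 65 in the Taf4asKO replicates. These corresponded to about 62.2, 18.1, 132 and 95.5 reads, so that control replicate 2 was the least precise library. Upstream peaks held 39.5% to 41.2% of the signal of each library, and their median value exceeded that of peaks without an assigned gene 5.70 to 8.13 times. Between replicates, Pearson's r of log2(value + 1) over the 1567 peaks was 0.935 in control and 0.979 in Taf4asKO, as a description of the libraries. Control replicate 1 had a higher r with both Taf4asKO libraries (0.966 and 0.961) than with control replicate 2, so that the libraries did not group by genotype. The control libraries held about 111265 and 351696 reads in peaks and the Taf4asKO libraries 505241 and 734552. Reads in peaks and genotype thus cannot be told apart. Uniquely mapped reads, as listed by the study, differed less between these libraries. NF-YA peaks do not measure expression, and the identity of the cells could not be checked from their markers. Of 10 marker genes of MuSCs and myogenic cells 3 had any peak and 1, *Myod1*, had an upstream peak.

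The promoter sequences show what most of these peaks had in common. Sequences are from GRCm38 (mm10), written 5′ to 3′ along the strand of the gene, with CCAAT and its reverse complement ATTGG in capitals. They run from 8 bases before the first to 8 bases after the last pentamer in the central 200 bases of the peak. Among the peaks with the highest mean values, those at *Zbtb5* (chr4:45012511-45012706, minus strand) and *Zfp869* (chr8:69717024-69717208, minus strand) each carried 3 pentamers in 1 orientation:
Zbtb5: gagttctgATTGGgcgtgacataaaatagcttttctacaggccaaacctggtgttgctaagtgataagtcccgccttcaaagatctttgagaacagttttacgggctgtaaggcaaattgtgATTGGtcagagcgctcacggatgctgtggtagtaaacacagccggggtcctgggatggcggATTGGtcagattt
Zfp869: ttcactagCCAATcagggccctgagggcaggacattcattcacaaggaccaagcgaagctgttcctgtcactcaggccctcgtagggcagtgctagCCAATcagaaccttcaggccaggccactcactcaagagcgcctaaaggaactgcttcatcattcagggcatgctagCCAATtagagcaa

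The largest number of pentamers in a peak was 6, before *Arid4a* (chr12:71015765-71015946, plus strand), which encodes a chromatin protein that binds the retinoblastoma protein. The stretch spans positions -225 to -44 from the gene start, and its 6 pentamers all lay on the strand of the gene:
Arid4a: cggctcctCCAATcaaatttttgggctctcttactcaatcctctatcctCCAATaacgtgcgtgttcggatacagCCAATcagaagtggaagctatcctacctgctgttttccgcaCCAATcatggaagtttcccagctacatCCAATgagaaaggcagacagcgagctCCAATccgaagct

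Of the 1567 upstream peaks, 1489 held CCAAT within their central 200 bases (95%, with a 95% Wilson interval of 93.8% to 96.0%). The pentamer was searched on both strands, also where matches overlapped. In windows of the same length centred 1000 bases to either side of the same peaks it occurred in 730 of 3134 cases (23.3%). Among 20373 coding genes without an upstream peak, 27.0% had CCAAT in the 200 bases before the start. Intervals for shares cover the sampling of peaks and not the error of peak calling.

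CCAAT was more frequent in upstream peaks than in the other peaks near coding starts. Peaks centred within 200 bases downstream of a coding start carried it in 264 of 315 cases (83.8%), which was 11.2 percentage points less (95% Newcombe interval of the difference 7.37 to 15.8). Peaks between 200 and 1000 bases from a coding start carried it in 522 of 699 cases (74.7%), 20.3 points less (17.0 to 23.8). The share with 2 or more pentamers was 57.5% for upstream and 40% for downstream peaks (difference 17.5 points, 11.5 to 23.3). The size of the difference to downstream peaks depended on the window. With the whole peak searched it was 6.13 points, and with the central 100 bases 19.4 points.

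The positions of the pentamers are described without a test, since the rule fixed the peak centres between 200 bases upstream and the start. For the pentamer nearest the peak centre, the middle base lay at a median of -73 from the start, with quartiles of -114 and -46, and 714 of 1489 fell between -100 and -40. It was within 20 bases of the peak centre in 827 peaks (55.5%). The positions of all pentamers in the 200 bases before each start were also read, for genes that the same rule had selected. For 1565 genes with an upstream peak the annotation gave a start, and they held 30.1 pentamers per 100 genes between -60 and -41 and 28.5 between -80 and -61, against 7.09 between -200 and -181. Genes without an upstream peak held 4.07, 4.54 and 2.31 in the same bins. The ratio to such genes was 7.40-fold from -60 to -41 and 3.07-fold from -200 to -181.

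**Figure D1:**
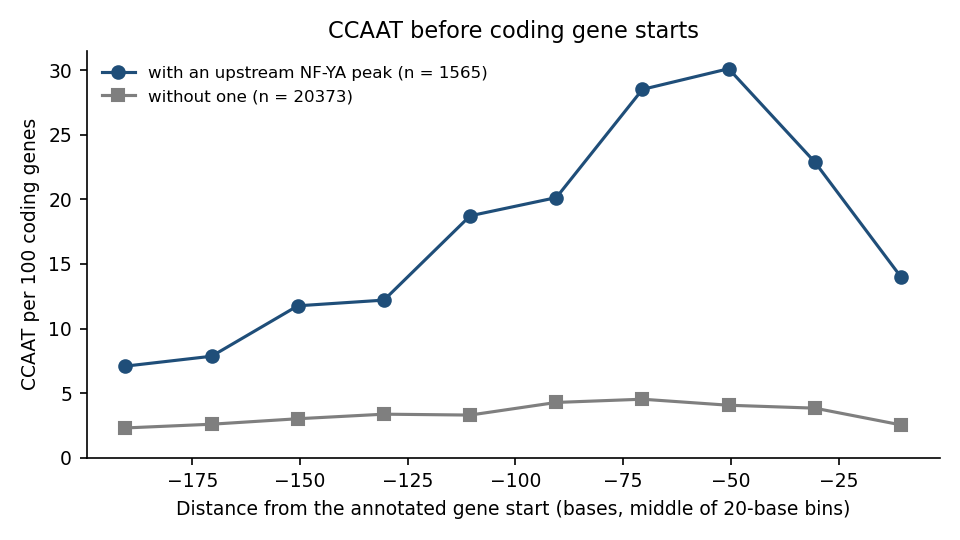
CCAAT pentamers on either strand per 100 coding genes, in bins of 20 bases before the annotated start, for 1565 genes with an upstream NF-YA peak and 20373 without. The first curve peaks at 30.1 per 100 genes between -60 and -41, and the second stays between 2.31 and 4.54.

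The orientation of the pentamer relative to the gene was nearly balanced. It was read as CCAAT on the strand of the gene in 771 of 1489 peaks (51.8%, 49.2% to 54.3%), an interval that includes 50%. In the 1339 peaks with CCAAT and without a second coding gene that started within 1000 bases on the other strand the share was 53% (50.4% to 55.7%), and in peaks with exactly 1 pentamer it was 49.8%. The median values of peaks on the gene strand were 67 and 62 in control and 59 and 67 in Taf4asKO, and those of peaks on the other strand were 67.5, 62, 60 and 68 in the same order.

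Where a promoter carried several pentamers, their distances followed a regular pattern. The 1567 peaks held 1309 pairs of neighbouring pentamers with a median distance of 41 bases between their middles. Of these, 854 (65.2%) were on the same strand, 253 were back to back and 202 faced each other. Same-strand pairs were most frequent at 32 bases (67 pairs) and again at 41 bases (51 pairs), with 4 pairs at 35 bases between these maxima. In bins of 5 bases there were 199 pairs at 29 to 33 bases, 38 at 34 to 38, 142 at 39 to 43, 48 at 44 to 48 and 81 at 49 to 53.

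Pairs on opposite strands occupied other distances. There were 68 of them at 24 to 28 bases and 60 at 34 to 38 bases, against 29 at 29 to 33 bases, where same-strand pairs were most frequent. At 25 bases 20 of 22 pairs were back to back. A further 19 pairs at 3 bases came from the palindrome CCAATTGG, in which the pentamers overlap, and this pair was seen 59 times before coding genes without an upstream peak. Among the 1406 pairs before genes without an upstream peak, 55.7% were on the same strand, and 12.6% of the same-strand pairs lay at 29 to 33 bases against 23.3% in upstream peaks. The same-strand pairs before such genes alternated as well, with 99, 37, 79, 41 and 65 pairs in the 5 bins named above, and their shares at 44 to 48 bases (5.24% against 5.62%) and 49 to 53 bases (8.30% against 9.49%) were close to those in upstream peaks. Pairs of 1 promoter share a sequence and are no independent samples, and the windows differ in placement, so that these shares are given without a test.

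**Figure D2:**
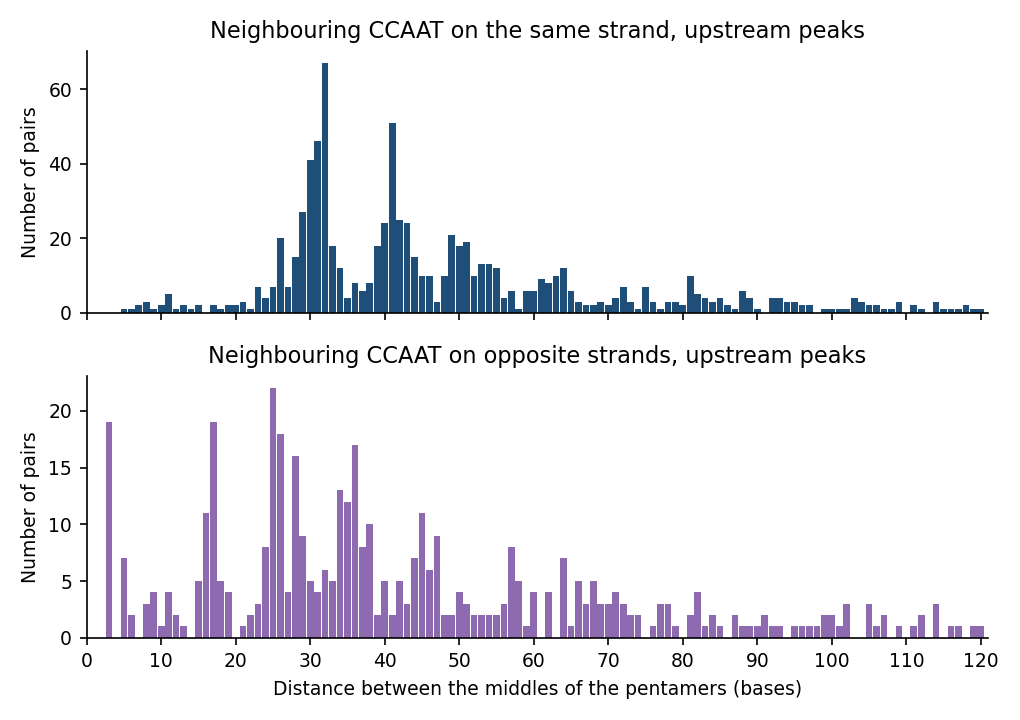
Number of pairs of neighbouring CCAAT pentamers in the central 200 bases of upstream peaks by the distance between their middle bases, for pairs on the same strand (upper panel) and on opposite strands (lower panel). Same-strand pairs have maxima at 32 bases (67 pairs) and 41 bases (51 pairs), and opposite-strand pairs are frequent at 25 bases (22 pairs) and at 3 bases (19 pairs).

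The strongest peaks with exactly 2 pentamers at these distances show the arrangement. Distances of 32 bases occurred before *Mtmr4*, a phosphoinositide phosphatase (chr11:87592099-87592151, plus strand), the circadian activator *Dbp* (chr7:45704985-45705037, plus strand) and *Rab8a*, a GTPase of vesicle transport (chr8:72161102-72161154, plus strand). The pair of *Kansl2* (chr15:98534307-98534359, minus strand) had the same distance. Pairs 41 bases apart are shown for *Jpt2* (chr17:24960805-24960866, minus strand) and *Rtn4*, an endoplasmic reticulum protein (chr11:29692816-29692877, plus strand):
Mtmr4: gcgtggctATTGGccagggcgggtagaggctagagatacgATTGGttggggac
Dbp: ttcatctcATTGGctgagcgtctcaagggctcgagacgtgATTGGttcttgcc
Rab8a: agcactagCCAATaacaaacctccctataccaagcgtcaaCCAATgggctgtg
Kansl2: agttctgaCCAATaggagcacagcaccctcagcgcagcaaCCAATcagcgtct
Jpt2: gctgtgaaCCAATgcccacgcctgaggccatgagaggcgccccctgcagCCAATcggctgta
Rtn4: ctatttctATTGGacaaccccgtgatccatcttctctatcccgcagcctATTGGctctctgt

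The palindrome occurred in the *Ube2c* promoter (chr2:164769693-164769786, plus strand), which drives a ubiquitin-conjugating enzyme of mitotic exit. In the stretch shown, 1 further pentamer lies on either side of it:
Ube2c: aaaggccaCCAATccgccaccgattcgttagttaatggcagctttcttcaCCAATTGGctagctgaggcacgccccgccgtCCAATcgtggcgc

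NF-YA signal was higher the more pentamers a peak held, in every library. Of the upstream peaks 78 had 0, 588 had 1, 585 had 2, 233 had 3 and 83 had 4 or more. The median of the mean value was 20.4, 34.9, 71.3, 116 and 164 in this order. In control replicate 1 the medians were 23.5, 34, 76, 123 and 179, and in Taf4asKO replicate 2 they were 27, 39, 74, 116 and 160. Peaks with more pentamers were also wider, with a median width of 158 bases at 0 and 382 bases at 4 or more. Per 100 bases of peak width the medians of control replicate 1 went from 17.5 to 47.5. Spearman's rho between number and value was 0.454 to 0.470 across the 4 libraries, over 1567 peaks that share the same libraries and the same peak calling.

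**Figure D3:**
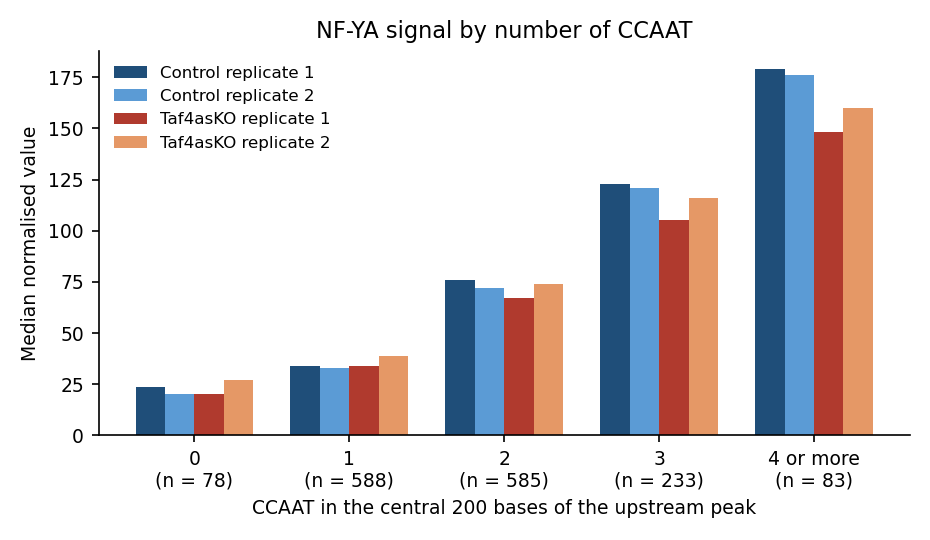
Median normalised value of upstream peaks with 0, 1, 2, 3 and 4 or more CCAAT in the central 200 bases, 1 bar for each NF-YA library. The medians rise with each step in all 4 libraries, from 20 to 27 without CCAAT to 148 to 179 with 4 or more.

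Signal also differed between kinds of pairs among the 585 peaks with exactly 2 pentamers. For same-strand pairs the median of the mean value was 78.3 at 29 to 33 bases (102 peaks), 51.5 at 34 to 38 bases (16 peaks), 72.5 at 39 to 43 bases (69 peaks), 62.6 at 44 to 48 bases (22 peaks) and 101 at 49 to 53 bases (39 peaks). Opposite-strand pairs at 19 to 53 bases had a median of 51.0 (95 peaks). At 54 or more bases the medians were 96.6 on the same strand (122 peaks) and 86.1 on opposite strands (70 peaks). The quartiles overlapped widely, for example 38.6 to 112 at 29 to 33 bases and 29.4 to 66.9 at 34 to 38 bases, and these values are descriptions of groups with few peaks.

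The bases around the pentamer were not random. Read along CCAAT, the base before it was G in 49.3% and A in 28.9% of 1477 peaks, and the second base before it was A or G in 46.6% and 36.9%. After the pentamer, C followed in 55.3% and G in 25.9%, then A in 49.2% and G in 37.2%. A pair of purines before and C or G with a purine after occurred together in 706 of 1477 peaks (47.8%), against 36.3% of 1819 peaks with CCAAT and no assigned gene. The heptamer CCAATCA was present in 44.3% of upstream and 32.7% of downstream peaks (difference 11.6 points, 5.70 to 17.1).

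Of the other promoter elements searched, the GC box was the most frequent. GGGCGG, the core of the site of SP1 and related factors, occurred in 967 upstream peaks (61.7%, 59.3% to 64.1%), 169 downstream peaks (53.7%) and 35.6% of coding genes without an upstream peak. The difference to downstream peaks was 8.06 points (2.11 to 14.1). The nearest GC box lay at a median distance of 33.5 bases from the pentamer in 922 peaks with both, on its downstream side in 54.3%. Upstream peaks were rich in GC in general, with a median of 60.5% in the central 200 bases.

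Elements of other kinds were rare. TATAAA, a form of the TATA box, was found in 3.38% of upstream peaks and in the 200 bases before 9.66% of genes without an upstream peak. CCGGAAG, a core site of ETS factors, was found in 10.5% and 7.25%, the E-box CACGTG in 7.85% and 5.46%, and the CRE palindrome TGACGTCA in 2.55% and 1.81%. For these 4 elements the intervals of the difference between upstream and downstream peaks included 0.

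Upstream and downstream peaks were compared in strength within each library. The ratio of their median values was 1.07 and 1.00 in control libraries, against 1.02 and 0.970 in Taf4asKO libraries, a mean log2 ratio of 0.02 ± 0.06 (SD, n = 4). An exact two-sided sign-flip test over the 4 libraries gave p = 0.75, but 0.13 is the smallest p it can give, so that it cannot show a difference. The direction depended on the measure, with a mean log2 ratio of -0.11 for mean in place of median values and of 0.19 for median values per base of peak width. Against peaks between 200 and 1000 bases from a start, the median was 1.68 to 1.81 times as high.

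The strongest upstream peaks belonged to genes of unlike function, and 9 of them are given here. *Zbtb5* and *Zfp869* encode zinc finger proteins. The *Zbtb5* peak gave 678 and 646 in the control libraries against 510 and 570 in the Taf4asKO libraries, and the *Zfp869* peak 617 and 691 against 424 and 506. *Per1*, a repressor of the circadian clock, had 655 and 626 against 448 and 502. The others were *Mtmr4*, the transcription activator *Camta1*, *Ankrd54*, the pyruvate carboxylase gene *Pcx*, the small GTPase gene *Arf2* and *Cbx5*, which encodes the heterochromatin protein HP1 alpha. In these 9 peaks the mean was lower in Taf4asKO, with log2 fold changes from -0.49 to -0.08, as it was in 96.4% of all upstream peaks of this strength (means of 200 or more). The value of *Cbx5* was 0.06 with equal totals and 0.02 without control replicate 1. In none of the 9 peaks did the adjusted p of limma pass 0.05.

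Strong signal without CCAAT was uncommon. The highest means among the 78 peaks without the pentamer in this window were at *Hspa2*, a testis-enriched member of the HSP70 chaperones, at *9430038I01Rik* and at *Kdm3a*, a histone H3K9 demethylase. These peaks were 444, 485 and 676 bases wide, and their bases outside the window are not described. The *Hspa2* peak gave 244 and 215 in the control libraries against 234 and 254 in the Taf4asKO libraries. Its central 80 bases (chr12:76404119-76404198, plus strand) hold a GC box but no CCAAT:
Hspa2: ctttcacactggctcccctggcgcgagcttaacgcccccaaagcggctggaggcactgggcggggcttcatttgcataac

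The share of genes with an upstream peak differed between pathways. An upstream peak was present at 7.14% of all coding genes, but at 51.2% of 41 genes of sterol and fatty acid synthesis, 44.8% of 67 replication-dependent histone genes, 44.4% of 54 genes of folding and stress in the endoplasmic reticulum (ER), 35.4% of 65 mitosis genes and 27.4% of 62 genes of DNA replication and nucleotide synthesis. The lists were compiled from textbook knowledge with NF-Y in view, and the shares are descriptions. The shares were 15.2% for 46 cytosolic and mitochondrial chaperone genes, 11.3% for 106 genes of the transcription machinery, 10.5% for 76 splicing genes, 10.1% for 199 mitochondrial genes, 9.80% for 51 proteasome genes and 9.30% for 86 cytosolic ribosomal protein genes.

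In the ER, NF-YA signal lay before genes for chaperones and quality control. The list's 24 upstream peaks had a median of the mean value of 127, the highest of any list with more than 1 peak, and 18 of them held 2 or more pentamers. The *Hspa5* peak gave 272 and 294 in the control libraries against 215 and 254 in the Taf4asKO libraries, and this gene encodes the chaperone BiP. *Pdia4*, a disulfide isomerase, had 435 and 391 against 332 and 381, and *Sel1l*, a component of ER-associated degradation, had 321 and 342 against 242 and 276. The groups overlapped at *Dnajb11*, a co-chaperone of BiP, with 267 and 297 against 237 and 285. Among sterol genes the strongest was *Hmgcs1*, the synthase of the early mevalonate pathway, at 337 and 359 (control replicates) and 262 and 302 (Taf4asKO replicates), whereas the prenyl synthase gene *Ggps1* had 248 and 209 against 225 and 248. Of the 24 tested ER peaks and 19 tested lipid peaks 18 and 13 had a negative log2 fold change, with medians of -0.23 and -0.18, and of -0.08 and -0.04 when libraries were scaled to equal totals. Of all tested peaks 53.8% had a negative value. In limma 4 and 3 had an unadjusted p under 0.05, near the share of 17.9% over all tested peaks, and 0 passed the adjusted threshold.

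Genes of the cell cycle formed a second block. The strongest mitosis peak, at *Ube2c*, gave 304 and 310 in the control libraries against 204 and 226 in the Taf4asKO libraries. *Tpx2*, a spindle assembly factor, had 180 and 176 against 119 and 141, and *Ect2*, a regulator of cytokinesis, had 168 and 160 against 123 and 127. In these 3 peaks both control values exceeded both Taf4asKO values, as in 28.6% of all tested peaks and, outside histone genes, in 46.2% of upstream peaks with means of 100 to 200 and 76.2% of those at 200 or more. In contrast, *Cks2*, a subunit of cyclin-dependent kinases, had 118 and 101 against 104 and 142. Of the replication genes, *Rpa2*, a subunit of the single-strand binding protein RPA, had the highest mean, with 264 and 228 against 209 and 238. The helicase subunit genes *Mcm5* and *Mcm3* had 189 and 196 against 135 and 142, and 146 and 170 against 138 and 131, and the initiation factor gene *Mcm10* had 203 and 196 against 141 and 129. Among the 21 tested mitosis and 17 tested replication peaks, 13 and 10 had a negative log2 fold change, with medians of -0.13 and -0.16, and of 0.01 and -0.01 with equal totals, which turned the sign for mitosis. In limma 6 and 4 had an unadjusted p under 0.05, and 0 passed the adjusted threshold. Over all tested peaks 53.8% had a negative log2 fold change and 17.9% an unadjusted p under 0.05.

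Other lists had fewer members. *Med19*, a Mediator subunit, had the strongest of 12 peaks at genes of the transcription machinery, at 437 and 460 (control replicates) and 352 and 382 (Taf4asKO replicates). Of 7 genes for NF-Y subunits and SP factors 6 had a peak, but 0 had one in this set. Upstream peaks at muscle genes were weak, with means between 26.8 and 37.3 at *Myod1*, *Dag1*, *Mef2d* and *Pax3*. Over the splicing, chaperone, mitochondrial, ribosomal and proteasome lists the median log2 fold change was between -0.31 and -0.03, and with equal totals between -0.17 and 0.12, positive for chaperone, mitochondrial and ribosomal genes. In limma 1 peak each of the first 3 of these lists had an unadjusted p under 0.05, as had 1 of the transcription machinery and *Myod1*, beside 17.9% of all tested peaks, and 0 peaks of these lists passed the adjusted threshold.

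Promoters shared with a second gene were less frequent among upstream than among downstream peaks. A coding gene that started on the other strand within 1000 bases upstream was annotated for 154 of 1567 upstream peaks (9.83%) and 48 of 315 downstream peaks (15.2%), a difference of -5.41 points (-10.0 to -1.53). All coding genes had such a neighbour in 6.78% of cases. When the neighbour could be of any biotype the shares were 18.3% and 21%, and the interval of the difference (-7.81 to 1.95) included 0. The 154 shared promoters had a median of the mean value of 92.9 against 58.5 for the others, and in them the pentamer was on the strand of the assigned gene in 40.7%. The highest means were at *Cbx5*, whose neighbour is *Hnrnpa1*, and at *Tmem256* with *Nlgn2*.

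Given the authors' normalisation, NF-YA signal at upstream peaks differed little between the genotypes, and 1 peak passed the test. A gain or loss shared by all peaks would be scaled away and cannot be seen in these values. Of 1567 members 1481 had a mean value of at least 10 and were tested with limma on log2(value + 1), adjusted over all 4746 tested peaks. The peak with an adjusted p under 0.05 was at the histone gene *Hist1h2bl*. Over all tested peaks 45 passed, which is 0.948%. At an unadjusted p under 0.05 there were 198 upstream peaks (13.4%), 154 lower and 44 higher in Taf4asKO, against 17.9% of all tested peaks. The median log2 fold change was -0.06 for upstream peaks and -0.04 for all tested peaks, and with libraries scaled to equal totals these were 0.08 and 0.10. With libraries scaled to equal medians 26 upstream peaks passed, 24 of them lower in Taf4asKO, beside 129 of 4746 tested peaks. When only peaks with means of 50 or more were fitted 40 of 892 upstream peaks passed, 37 of them lower, beside 133 of 1880 peaks. The smallest limma adjusted p of that fit over all peaks was 4.53e-62, which 4 libraries cannot support, so that its calls are uncertain. Without any 1 of the 4 libraries the median log2 fold change was between -0.14 and 0.02 for upstream peaks. For all tested peaks it was between -0.09 and 0.004. Such fits hold a lone library in a genotype, and their calls are not counted.

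Given the authors' scaling, the data bounded the relative differences at most members. Intervals of limma leave out the uncertainty of that scaling and cannot bound a change shared by all peaks. The 95% limma interval of the log2 fold change lay between -1 and 1, that is within a 2-fold change, for 1130 of 1481 tested upstream peaks (76.3%), and for 55.5% of all tested peaks. Among upstream peaks with a mean of 10 to 20 this held for 14.6%, and with a mean of at least 200 for 100%. A log2 fold change of 1 or more in size was seen at 32 of 1481 upstream and 362 of 4746 tested peaks. For most peaks with means of 10 to 20 the interval thus included changes of 2-fold or more.

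The direction of the small differences followed the strength of the peak. At means of 10 to 20 the median log2 fold change of 178 upstream peaks was 0.28, at 20 to 50 it was 0.16, at 50 to 100 it was -0.05, at 100 to 200 it was -0.18, and at 200 or more it was -0.26. With equal totals instead, the first of these medians was 0.42 and the last -0.12. Of the 166 peaks with a mean of at least 200, 160 (96.4%) had a lower mean log2 value in Taf4asKO. In peaks outside this set the medians were 0.13, 0.03, -0.07, -0.20 and -0.28 in the same order, lower than those of upstream peaks in each interval, with the widest gaps at means under 50. For the mean log2 difference between upstream and other peaks, an exact two-sided permutation test between genotypes gave p = 0.333 in 4 intervals of strength and 0.667 at means of 20 to 50, but 0.333 is the smallest that 2 against 2 libraries can give, so that it cannot show a difference. Replicates of upstream peaks with means of 10 to 20 had an SD of log2 values of 0.70 (control) and 0.31 (Taf4asKO), beside 0.12 and 0.14 at means of at least 200. The control libraries had the fewer reads in peaks, and the part of these numbers in this gradient was not tested.

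**Figure D4:**
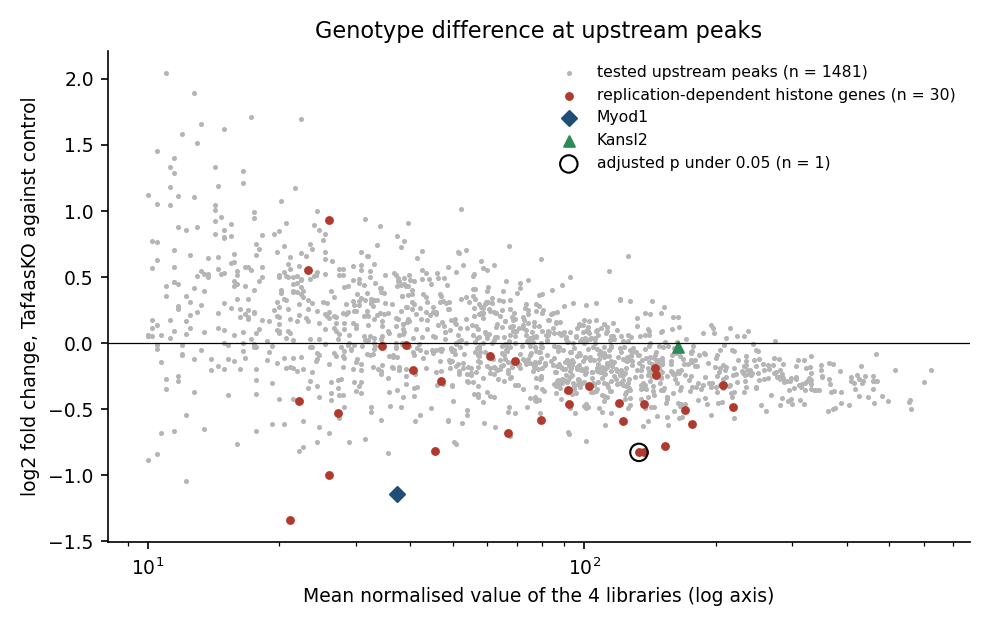
log2 fold change between Taf4asKO and control against the mean normalised value (log axis) for 1481 tested upstream peaks, with 30 peaks of replication-dependent histone genes in red. The cloud falls from a median of 0.28 at means of 10 to 20 to -0.26 at means of at least 200, and 28 of the 30 histone peaks lie below 0.

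Of the gene lists, histone genes had the lowest median log2 fold change. Replication-dependent histone genes, which are transcribed in S phase without polyadenylation of their mRNA, had 30 upstream peaks with library medians of 103.5 and 91.5 in control against 69.5 and 73 in Taf4asKO, and 28 of these held 2 or more pentamers. Of the 30 peaks 28 had a lower mean log2 value in Taf4asKO, against 56.5% of all tested upstream peaks, and the median log2 fold change was -0.46. The number was 24 of 30 with equal library totals, where the median was -0.31, and 23 of 30 without control replicate 1. In 21 peaks both Taf4asKO values were below both control values, which was the case in 28.6% of all tested peaks. Of the 30 peaks 15 had an unadjusted p under 0.05, among them *Hist3h2ba*, which was higher in Taf4asKO. An adjusted p under 0.1 was seen at 5 peaks and an adjusted p under 0.05 at 1. Of all tested peaks 17.9% had an unadjusted p under 0.05 in either direction, and 10.9% had it with a lower value in Taf4asKO. For the adjusted p the shares were 2.76% and 0.948%.

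Most of the 21 separated peaks belonged to H2A and H2B genes, beside the 28.6% of all tested peaks. Such separation was more frequent at stronger peaks. In upstream peaks outside histone genes its share was 11.25% at means of 20 to 50 and 25.8% at 50 to 100. At 100 to 200 it was 46.2%, and at 200 or more 76.2%. Among histone peaks the numbers were 6 of 11, 4 of 6, 9 of 11 and 2 of 2 in the same order. All 8 H2A peaks and 9 of 10 H2B peaks had Taf4asKO values below control values, with median log2 fold changes of -0.55 and -0.47. The medians of the H2B peaks were 177 and 179.5 in the control replicates and 119.5 and 122.5 in the Taf4asKO replicates. Among the 9 H3 peaks the groups were separated in 3, and their median was -0.19. The groups overlapped at the single H4 peak, and of 2 H1 peaks 1 was lower with separated groups and 1 was higher. At matched strength, the 11 histone peaks with means of 100 to 200 had a median of -0.51 against -0.17 for the 318 other upstream peaks of that range, and the 11 with means of 20 to 50 had -0.29 against 0.16 for 400 others. Of the 30 peaks 22 lay in the large cluster on chromosome 13 and 6 on chromosome 3.

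The single peak past the threshold lay before *Hist1h2bl* (named *H2bc7* in the deposited table, ENSMUSG00000094338, chr13:21716073-21716468). The control libraries gave 172 and 170 (mean 171 ± 1.41, SD, n = 2), and the Taf4asKO libraries gave 94 and 98 (mean 96 ± 2.83). The replicates of each genotype were close together and the genotypes did not overlap. The difference was -0.83 on the log2 scale, with an SE of 0.16 and a limma adjusted p of 0.0473, which ranged from 0.000206 to 0.739 over 10 alternatives and was above 0.05 without any 1 library. The log2 fold change itself lay between -0.86 and -0.68 over these alternatives. The lowest of the p-values came from the fit to means of 50 or more, whose calls are uncertain. A second gene, *Hist1h2ai*, starts 279 bases away on the other strand, so that the peak lies in a promoter of an H2A and an H2B gene. Its 4 pentamers include a back-to-back pair and lie between -193 and -118 (chr13:21716261-21716336, minus strand):
Hist1h2bl: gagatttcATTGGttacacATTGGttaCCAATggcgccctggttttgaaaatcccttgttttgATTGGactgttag

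Further histone peaks showed the same order of values without passing the threshold. *Hist1h2bn* had 182 and 205 in control and 113 and 112 in Taf4asKO (log2 fold change -0.77, SE 0.15, limma adjusted p 0.0556). *Hist1h2ae* had 152 and 199 against 105 and 91 (-0.82, limma adjusted p 0.0801), and *Hist1h2bf* had 208 and 219 against 148 and 131 (-0.61, limma adjusted p 0.0967). The 2 peaks with higher values in Taf4asKO were at *Hist3h2ba*, with 23 and 13 against 34 and 34, and at the H1 gene *Hist1h1a*, with 25 and 13 against 22 and 33. Histone genes are near-identical copies, and reads that mapped to several places had been removed, so that values of single copies are uncertain. Of the 30 peaks 9 lay in a promoter shared with a second coding gene, at distances of 176 to 302 bases between the starts.

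**Figure D5:**
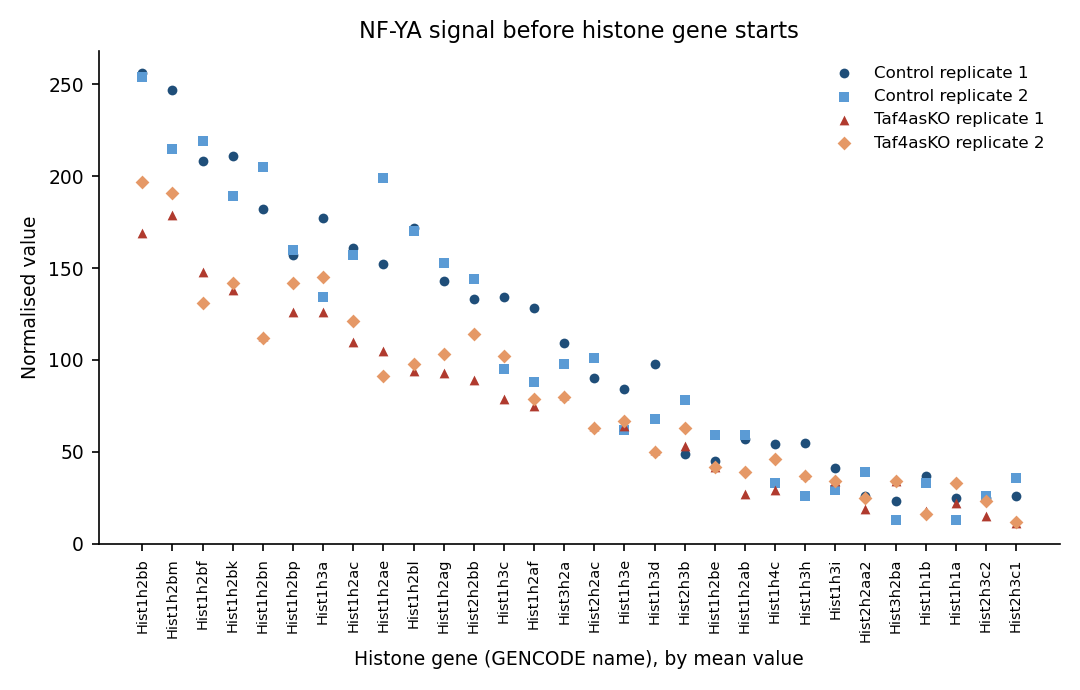
Normalised values of the 30 upstream peaks at replication-dependent histone genes, ordered by mean and named as in GENCODE M21, with 1 symbol for each NF-YA library. In 21 peaks both control values (blue) lie above both Taf4asKO values (red and orange), among them *Hist1h2bl* with 172 and 170 against 94 and 98.

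Among single genes, the promoter of *Myod1*, the myogenic master regulator of activated MuSCs, had one of the largest decreases. Of 2 peaks assigned to *Myod1*, 1 belonged to this set (chr7:46376267-46376591, 45 bases from the start), and the other is not described. The upstream peak gave 51 and 52 in the control libraries against 26 and 20 in the Taf4asKO libraries. Both Taf4asKO values were far below both control values. The log2 fold change was -1.14 (95% interval -1.71 to -0.57, SE 0.26), with a limma adjusted p of 0.0812, which did not pass 0.05. The adjusted p ranged from 0.0441 to 0.739 over 9 alternatives, while the log2 fold change stayed between -1.32 and -0.96. The other 3 tested peaks of the muscle list had positive log2 fold changes, 0.54 at *Dag1*, 0.21 at *Pax3* and 0.12 at *Mef2d*, and the median of the list was 0.16. Over the alternatives these ranged from 0.14 to 0.95, from -0.07 to 0.49 and from -0.35 to 0.58. The peak held 1 pentamer, 94 bases before the start (chr7:46376370-46376390, plus strand):
Myod1: acactcctATTGGcttgaggc

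The peak of *Kansl2*, a subunit of the NSL histone acetyltransferase complex, did not separate the genotypes, at 168 and 163 (control replicates) and 150 and 176 (Taf4asKO replicates) and a log2 fold change of -0.03 (95% interval -0.37 to 0.32), which was 0.12 with equal totals. Its pair of pentamers 32 bases apart is printed above. *Mbd3*, a subunit of the NuRD complex, had 413 and 437 in control and 271 and 325 in Taf4asKO, and *Prmt1*, an arginine methyltransferase, had 487 and 466 against 367 and 408. In both peaks the control values were higher, as in 28.6% of all tested peaks and 76.2% of the upstream peaks of other than histone genes with a mean of at least 200, and the limma adjusted p was 0.107 and 0.228. The *Mbd3* promoter carries 3 pentamers (chr10:80399613-80399786, minus strand) and the *Prmt1* promoter 1 (chr7:44986599-44986619, minus strand):
Mbd3: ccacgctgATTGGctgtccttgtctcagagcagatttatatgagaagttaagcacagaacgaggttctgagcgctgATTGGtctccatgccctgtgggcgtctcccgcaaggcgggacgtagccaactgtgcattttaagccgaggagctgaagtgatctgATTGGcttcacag
Prmt1: aattttacCCAATcgtcacac

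At an adjusted p under 0.1 there were 12 upstream peaks, against 2.76% of all tested peaks, and 10 of them were lower in Taf4asKO. These were named after their values had been seen. Beside *Myod1* and 5 histone peaks, the lower ones were *Hint2*, a mitochondrial hydrolase (445 and 431 against 304 and 319), the Wnt receptor gene *Fzd2* (186 and 192 against 125 and 120), *Gm19426* (126 and 127 against 76 and 75) and the isoleucyl-tRNA synthetase gene *Iars1* (161 and 170 against 110 and 104). The 2 higher ones were *Pnrc1*, a nuclear receptor coactivator, at 30 and 39 (control replicates) and 69 and 71 (Taf4asKO replicates), and *Xdh*, xanthine dehydrogenase, with 14 and 7 against 34 and 35. They differed by 1.01 and 1.70 on the log2 scale (limma adjusted p 0.0813 and 0.0801).

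The largest fold changes were at weak peaks. The 3 largest increases were at *Spty2d1*, a histone chaperone (14 and 0 against 16 and 14), *Pole*, the catalytic subunit of DNA polymerase epsilon (7 and 3 against 16 and 25), and *Farp2* (15 and 3 against 22 and 29). The sizes at *Spty2d1* and *Farp2* depended on control replicate 2. The log2 fold change of *Spty2d1* was 2.04 with all libraries and 0.09 without it, and over 9 alternatives it lay between 0.09 and 4.00. At *Farp2* it was 1.72 with all libraries and 0.72 without control replicate 2, and at *Pole* 1.89 and 1.39. The 3 largest decreases were at *H3c2* (*Hist2h3c1*), with 26 and 36 against 11 and 12, at *Myod1*, and at the troponin T gene *Tnnt3*, with 17 and 16 against 11 and 5. The limma adjusted p of the last was 0.285, and its log2 fold change of -1.04 was -0.54 without Taf4asKO replicate 2 and -1.54 without Taf4asKO replicate 1.

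The limit of 200 bases cut through a range of weak and strong peaks. Just inside lay the peaks of *Enpp4* (27 and 20 in control, 32 and 28 in Taf4asKO) and *Gzmb* (0 and 3, 5 and 3) at 200 bases and of *Tarbp2* (238 and 202, 182 and 210) at 198 bases. Just outside, at 201 bases, lay those of *Pja2* (288 and 323, 232 and 256), *AW549877* (240 and 192, 196 and 225) and *Echdc3* (7 and 10, 19 and 16).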

How the data were processed

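NF-YA binding was measured by CUT&RUN, which releases DNA near an antibody-bound protein with a tethered nuclease. Per the submitters' processing notes, the authors trimmed the read pairs with Trimmomatic 0.39, aligned them to mm10 with STAR 2.7.11a, removed duplicates with Picard 3.1.1 as well as spliced, multi-mapping, ribosomal and mitochondrial reads, and called peaks with MACS, which were unified over libraries. For CUT&RUN the study's methods name other versions of STAR and Picard, and which were used was not settled here. The deposited values are a score, namely the reads per unified peak normalised by the authors with DESeq2 (version 1.36.0 per the labels, another in the study's methods) and rounded to whole numbers. The count model was therefore not used.

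Genotypes were compared with limma 3.58.1 (R 4.3.3, variance trend) on log2(value + 1) for all peaks with a mean of at least 10, with Benjamini-Hochberg adjustment over 4746 peaks. Fold changes are differences of mean log2 values on this scale. For low peaks they can be too small or, where a library has a very low value, too large. The value of 1 read was estimated from the gaps between low values (1.04, 3.26, 0.432 and 0.681 in control replicates 1 and 2 and Taf4asKO replicates 1 and 2), approximately for Taf4asKO replicate 1. Motifs were searched on both strands in the central 200 bases of each peak in GRCm38 with Python 3.11.15 and pysam 0.24.0. Of the 1567 genes 1560 had the same coordinates in GENCODE M21. Shares carry Wilson intervals and differences Newcombe intervals. Named peaks were the 10 with the highest mean (1 is not reported here), all that passed, the 3 largest changes in each direction, up to 4 of each gene list, genes of interest, the 3 with most CCAAT, the 3 strongest without it, and those at the 200-base limit. Peaks shown for pair distances or with longer stretches of sequence, and those with an adjusted p under 0.1 were added later. The members and lists were chosen with earlier results of these data known. The alternatives were other scalings, minima, pseudocounts and thresholds, the replicate block, other windows and leaving out each library.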

Additional observations from a re-analysis of the deposited data

How the results depend on the processing

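Calls depended on the processing, and the cause was not tested. Of the upstream peaks 1 passed an adjusted p of 0.05, against 26 with equal medians, 3 with equal totals, 0 without a minimum, 40 of 892 where the mean was 50 or more and 2 when 5 was added before the log, and 12 passed 0.1. Over all tested peaks the 45 calls became 129 with equal medians, 0 without a minimum, 133 with a mean of at least 50 and 131 at 0.1, and the split of these calls was 16 higher and 29 lower, against 32 and 97 with equal medians and 30 and 31 with equal totals. Equal totals gave 2 higher and 1 lower upstream peak. The calls with a mean of at least 50 are uncertain, as said above. Leaving out any 1 library leaves a lone library in a genotype, which is assumed to vary like the others, and calls of such fits are not counted. Without a minimum 196 of 1567 upstream peaks had a limma unadjusted p under 0.05, against 1015 of 7196 peaks. Equal totals shifted the median log2 fold change of all tested peaks to 0.10 and that of upstream peaks to 0.081, and without a library it was -0.14 to 0.02. Equal totals also moved the medians at means of 10 to 20 to 0.42 and of at least 200 to -0.12. Without a library the former was 0.22 to 0.41 and the latter -0.36 to -0.17. The log2 ratio of upstream to downstream peaks was -0.11 with means and -0.0061 to 0.039 without a library.

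The share of upstream peaks with CCAAT was 82.3% (main window 95%) in the central 100 and 96.3% in the central 300 bases. The share on the gene strand was 49.8% with exactly 1 pentamer and 53% without shared promoters. The difference in shared promoters was -2.64 points with neighbours of any biotype. In the gene lists the 1 call was lost without a minimum (0 calls). With the replicate number as a block 0 upstream peaks (177 at an unadjusted p under 0.05) and 31 of all passed. Same-numbered libraries did not deviate together (r = -0.09 over 4746 peaks), so that the numbers do not pair them. Histone peaks with lower values numbered 19 of 19 at a mean of at least 50 and 23 to 27 of 30 without a library. Of 859 values of 87 named peaks under the alternatives, 815 stayed on the same side of the threshold, 38 newly passed and 6 no longer passed, and 20 peaks changed sign under at least 1 alternative. The alternatives for histone peaks and for strength were added after the data had been seen.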
